A study of Gallus gallus with 6 samples.

Results

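The genes described here encode integrins and the extracellular matrix: integrin alpha and beta subunits, laminin chains, nidogens and perlecan (HSPG2), collagen chains, fibronectin (FN1), SPARC, tenascin C (TNC), matrix metalloproteinases (MMPs) and their inhibitors (TIMPs). They were chosen by gene symbol alone, and 90 of the 13051 genes measured on the array matched. RNA came from chick embryos electroporated at HH3 with the Hb-eGFP reporter and with pCAGGS-RFP, a ubiquitously active RFP vector, grown to HH5-6, collected as pools of several embryos, dissociated with trypsin and sorted by flow cytometry. The sort gave 3 samples of eGFP+ cells, called Hb-eGFP+, and 3 samples of eGFP-/RFP+ cells, called control cells, both from embryos that had received both constructs. Hb-eGFP is driven by a short fragment of the chick Cerberus regulatory region and a human beta-globin minimal promoter, so that the Hb-eGFP+ cells are those in which this fragment was active, whereas the control cells hold the other electroporated cells of the embryo. The sample labels describe the fragment named PCR8 in the study, while a figure legend names PCR2 for these embryos. The sources used here do not say which Hb-eGFP+ and control samples share a pool.

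Integrins are receptors made of 1 alpha and 1 beta subunit that hold cells to the matrix and signal from it, and the subunits that a cell makes decide which matrix proteins it binds. Laminins, which are trimers of an alpha, a beta and a gamma chain, polymerise beneath epithelia and around vessels and are tied by nidogens and perlecan to a network of type IV collagen, which together form the basement membrane. Fibronectin and the fibrillar collagens fill the space between germ layers. In the gastrula, mesoderm cells leave the primitive streak through a gap in the basement membrane and migrate over a fibronectin-rich matrix, and fibronectin and its receptors are required for blood vessel formation in the mouse.

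Each array gave 1 signal intensity per probe set, the model-based index that the authors computed in dChip (median 87.7 to 91.1 per array). The GFP probe set read 16931 to 17346 in Hb-eGFP+ cells but 836 to 992 in controls. Of 15 hemangioblast and endothelial markers, 12 were higher in Hb-eGFP+ cells and none was lower (80% and 0%, against 9.19% and 10.7% of all genes). The study lists most of these 12 as enriched from the same arrays, so the count is no independent check of the sort. A gene is called higher or lower where limma gave a Benjamini-Hochberg adjusted p under 0.05 over all 13051 genes. Each gene is represented by its brightest probe set, and the number of arrays limits the precision. In sorted pools, fewer cells of a type and less RNA per cell cannot be told apart.

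Hb-eGFP+ cells had higher signal for the integrin subunits ITGB3 and ITGB5, the laminin chains LAMA4 and LAMA5, fibronectin and the fibrillar collagens COL3A1 and COL1A2, and lower signal for the integrin subunit ITGA4, the laminin chains LAMA1 and LAMB1 and the collagens COL23A1 and COL9A1. The calls of LAMA1 and LAMB1 were lost on leaving out some single arrays. Those of fibronectin and LAMA1 were lost with the mean over the probe sets of each gene. For LAMA4, COL3A1 and COL9A1, no probe set beyond the brightest was called. Of the 90 genes, 16 were higher and 10 lower, and 64 were not called. The higher genes were 17.8% of the 90 against 9.19% of all genes tested, and the lower ones 11.1% against 10.7%. The changes were small, from -1.12 to 1.21 on the log2 scale, with a median of 0.10 against 0.01 for all genes, and all genes ran from -4.33 to 2.51. The methods called genes by a lower 90% bound of the fold above 1.7, from dChip. With such a bound computed from the replicate spread instead, only COL3A1 and LAMA4 were higher (bounds 2.05 and 1.78) and COL23A1 and MMP24 lower (bounds 2.01 and 1.75 with the groups exchanged). By this bound, 1.28% of all genes passed as higher and 2.15% as lower. The bound uses a normal quantile, which makes no allowance for the small number of arrays, and those of LAMA4 and MMP24 lie close to 1.7. Leaving out Hb-eGFP+ array 3 brought the lower genes from 10 to 6 of the 90, and from 1396 to 921 of all genes. Fewer of all genes were called with any 1 array left out, 742 to 1072 higher and 921 to 1293 lower, against 1200 and 1396 with all 6.

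**Figure D1:**
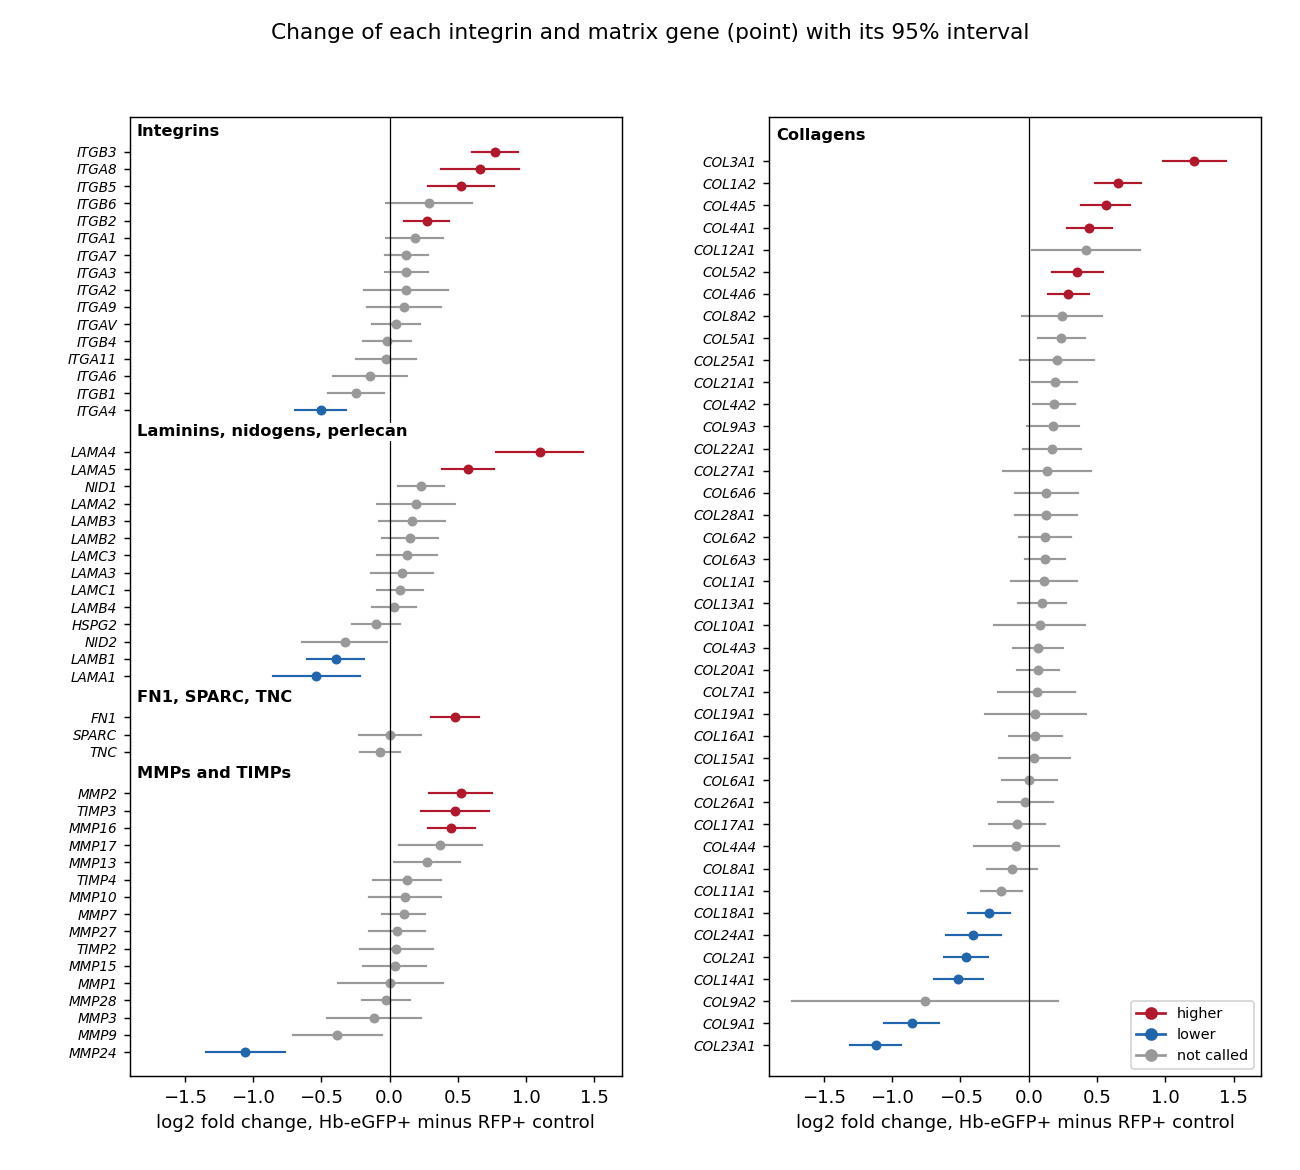
Log2 fold change (Hb-eGFP+ minus RFP+ control, horizontal axis) of each of the 90 genes with its 95% interval from limma, by family, red for genes called higher, blue for lower and grey for not called. COL3A1 and LAMA4 lie farthest to the right and COL23A1 and MMP24 farthest to the left, and most genes lie near 0.

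Among the 16 integrin subunits, 4 were higher and 1 lower (25% and 6.25%, against 9.19% and 10.7% of all genes). ITGB3, the beta subunit that pairs with ITGAV in a receptor for vitronectin and fibronectin, read 1431, 1374 and 1484 in Hb-eGFP+ cells and 885, 836 and 795 in control cells (values are given for replicates 1, 2 and 3 in this order throughout). Every Hb-eGFP+ array lay above every control array, at a mean of 1429.7 ± 54.7 against 839 ± 45.2 (SD, n = 3; log2 fold change 0.77 ± 0.07 SE, adjusted p = 2.8e-04 from limma). ITGB5, another partner of ITGAV, read 2222, 2189 and 2158 in Hb-eGFP+ cells and 1554, 1730.0 and 1313 in control cells, again without overlap (log2 fold change 0.52 ± 0.10 SE, adjusted p = 0.0113). The control arrays of ITGB5 were more spread than its Hb-eGFP+ arrays. ITGAV itself, the alpha subunit that both bind, read 127, 139.7 and 146 in Hb-eGFP+ cells and 137, 134 and 129 in control cells by its only probe set, with overlapping groups (log2 fold change 0.05 ± 0.08 SE, adjusted p = 0.714, unadjusted 95% interval -0.13 to 0.22). ITGA5, the alpha subunit of the main fibronectin receptor, was not analysed here.

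ITGA4, an alpha subunit that pairs with ITGB1 to bind fibronectin and VCAM1, was the only integrin called lower. It read 4046, 4635 and 4497 in Hb-eGFP+ cells and 6518, 6252 and 5908 in control cells, with all control arrays above all Hb-eGFP+ arrays (log2 fold change -0.50 ± 0.08 SE, adjusted p = 0.00402). ITGB1, the beta subunit shared by most matrix receptors, read 2813, 2804 and 2614 in Hb-eGFP+ cells and 3260.1, 3577 and 2947 in control cells (log2 fold change -0.25 ± 0.09 SE, adjusted p = 0.0929, unadjusted 95% interval -0.45 to -0.04). It was not called, although every control array was above every Hb-eGFP+ array, and it was called lower on leaving out control array 3 (-0.32, adjusted p = 0.0458, with 0.0311 to 0.253 over the 14 refits).

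ITGA8, an alpha subunit that pairs with ITGB1, and ITGB2, the beta subunit of leukocyte integrins, were called higher at low intensity. ITGA8 read 55.4, 69.8 and 57.8 in Hb-eGFP+ cells and 33.3, 42.3 and 39.8 in control cells (log2 fold change 0.67 ± 0.12 SE, adjusted p = 0.00821). ITGB2 read 76.4, 75.6 and 83.0 in Hb-eGFP+ cells and 64.3, 62.8 and 67.4 in control cells (log2 fold change 0.27 ± 0.07 SE, adjusted p = 0.0331). Neither had overlapping groups, but both were below the median of all probe sets. The call of ITGB2 was lost on leaving out Hb-eGFP+ array 1 (0.0655), Hb-eGFP+ array 3 (0.125), control array 1 (0.0963) or control array 2 (0.0939), in parentheses the adjusted p, which ran from 0.030 to 0.125 over the 14 refits. ITGA6, an alpha subunit of laminin receptors, read 161, 176 and 152 in Hb-eGFP+ cells and 158, 210.3 and 174 in control cells, with overlapping groups (log2 fold change -0.14 ± 0.12 SE, adjusted p = 0.428). The other integrins that were not called were the collagen-binding ITGA1, ITGA2 and ITGA11, the laminin-binding ITGA3, ITGA7 and ITGB4, and ITGA9 and ITGB6, with log2 fold changes from -0.03 (ITGA11) to 0.29 (ITGB6).

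Of the 5 laminin alpha chains, LAMA4 and LAMA5 were higher, LAMA1 was lower and LAMA2 and LAMA3 were not called. LAMA4, an alpha chain of vessel wall laminins, read 126, 138 and 122 in Hb-eGFP+ cells and 64.4, 69.3 and 48.3 in control cells, so that the lowest Hb-eGFP+ array was well above the highest control array (log2 fold change 1.10 ± 0.14 SE, adjusted p = 0.00124), although its mean was below the median of all probe sets. LAMA5, the alpha chain of many epithelial and vascular laminins, read 2247, 2383 and 2169 in Hb-eGFP+ cells and 1446, 1467 and 1666 in control cells, also without overlap, at a mean of 2267 ± 108 against 1526 ± 122 (SD, n = 3; log2 fold change 0.57 ± 0.08 SE, adjusted p = 0.00247). LAMA1, the alpha chain of early embryonic basement membranes, was lower and read 169, 134 and 124 in Hb-eGFP+ cells and 223, 178 and 215 in control cells (log2 fold change -0.54 ± 0.14 SE, adjusted p = 0.0312). LAMA2 and LAMA3 had log2 fold changes of 0.19 and 0.09. The call of LAMA1 was lost on leaving out Hb-eGFP+ array 2 (0.0779), Hb-eGFP+ array 3 (0.106), control array 1 (0.085) or control array 3 (0.0876), in parentheses the adjusted p, with 0.0125 to 0.147 over the 14 refits, whereas those of LAMA4 and LAMA5 held without each array.

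Of the beta and gamma chains, only LAMB1 was called. LAMB1, the beta chain that most laminins of the early embryo contain, read 2864, 3522 and 3221 in Hb-eGFP+ cells and 4358, 4188 and 4045 in control cells (log2 fold change -0.39 ± 0.09 SE, adjusted p = 0.0202). The Hb-eGFP+ arrays were all below the control arrays, but the call was lost on leaving out Hb-eGFP+ array 1 (0.0501), Hb-eGFP+ array 3 (0.0659), control array 1 (0.0642) or control array 2 (0.0556), in parentheses the adjusted p, with 0.0022 to 0.0659 over the 14 refits. LAMC1, the gamma chain that completes these trimers, read 6136, 5803 and 5853 in Hb-eGFP+ cells and 5633, 5947 and 5312 in control cells, with overlapping groups (log2 fold change 0.08 ± 0.07 SE, adjusted p = 0.50, unadjusted 95% interval -0.09 to 0.24). Of the 14 genes for laminins, nidogens and perlecan, 2 were higher and 2 lower (14.3% each way, against 9.19% and 10.7% of all genes), and the lower ones numbered 0 on leaving out Hb-eGFP+ array 3 or control array 1 and 1 on leaving out Hb-eGFP+ array 1, Hb-eGFP+ array 2 or control array 2. Counts of all genes fell as well with any array left out. LAMB2, LAMB3, LAMB4 and LAMC3 had log2 fold changes from 0.03 to 0.17 and were not called.

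The linkers of the basement membrane were not called. Nidogen NID1 read 2732, 2745 and 3076 in Hb-eGFP+ cells and 2435, 2408 and 2447 in control cells (log2 fold change 0.23 ± 0.07 SE, adjusted p = 0.0649), without overlap, and its adjusted p ran from 0.0191 to 0.375 over the 14 refits. NID2, the other nidogen, read 201, 246 and 218 in Hb-eGFP+ cells and 296, 315 and 229 in control cells (log2 fold change -0.33 ± 0.13 SE, adjusted p = 0.129), and was called lower on leaving out control array 3 (-0.47, adjusted p = 0.0284, with 0.0284 to 0.32 over the 14 refits), its lowest control array. Perlecan (HSPG2), a heparan sulfate proteoglycan, read 334, 339.7 and 358 in Hb-eGFP+ cells and 384, 340.3 and 381 in control cells, with overlapping groups (log2 fold change -0.10 ± 0.08 SE, adjusted p = 0.417).

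Fibronectin was among the brightest of the genes that were higher. FN1 read 6252, 5980.0 and 6216 in Hb-eGFP+ cells and 4237, 4212 and 4789 in control cells, with the highest control array well below the lowest Hb-eGFP+ array (log2 fold change 0.48 ± 0.08 SE, adjusted p = 0.00393). The mean was 6149 ± 148 in Hb-eGFP+ and 4413 ± 326 in control cells (SD, n = 3), a ratio of 1.39. SPARC, a secreted protein that binds collagen, read 2399, 2936 and 2773 in Hb-eGFP+ cells and 2908, 2549.8 and 2603 in control cells, with overlapping groups (log2 fold change 0.01 ± 0.10 SE, adjusted p = 0.975, unadjusted 95% interval -0.22 to 0.23). Tenascin C, a matrix protein that modulates adhesion to fibronectin, read 63.6, 64.5 and 66.5 in Hb-eGFP+ cells and 66.0, 68.9 and 69.0 in control cells, low on every array (log2 fold change -0.07 ± 0.06 SE, adjusted p = 0.502).

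**Figure D2:**
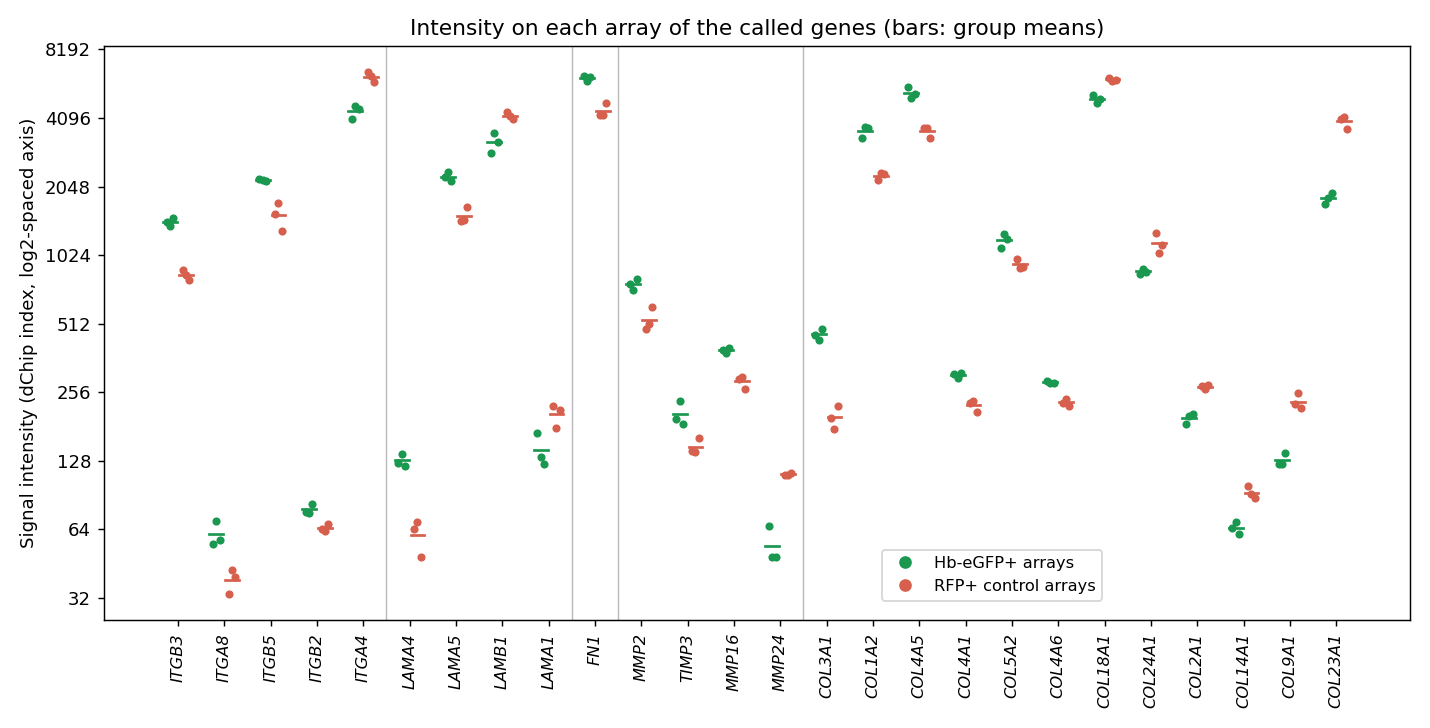
Signal intensity (vertical axis, log2-spaced) of the 26 called genes on each of the 3 Hb-eGFP+ arrays (green) and 3 RFP+ control arrays (red), with bars at the group means and grey lines between families. In every gene shown the arrays of one group lie apart from those of the other, with a narrow gap for LAMA1.

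The collagens were the largest family, and of 41 chains 6 were higher and 6 lower (14.6% each way, against 9.19% and 10.7% of all genes). The largest increase was that of COL3A1, a fibrillar collagen of vessel walls and loose mesenchyme, which read 456, 436 and 486 in Hb-eGFP+ cells and 198, 176 and 223 in control cells (log2 fold change 1.21 ± 0.10 SE, adjusted p = 1.4e-04). All its Hb-eGFP+ arrays were above the control arrays, with a ratio of means of 2.31. This increase rests on the brightest probe set of COL3A1, and none of its 5 others was called. COL1A2, a chain of type I collagen, read 3357, 3726 and 3711 in Hb-eGFP+ cells and 2196, 2343 and 2316 in control cells, also without overlap (log2 fold change 0.65 ± 0.07 SE, adjusted p = 6.8e-04). COL1A1, which encodes the other chain of the same trimer, was not called and read 1508, 1275 and 1245 in Hb-eGFP+ cells and 1261, 1121 and 1339 in control cells (log2 fold change 0.11 ± 0.10 SE, adjusted p = 0.49, unadjusted 95% interval -0.13 to 0.35).

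COL5A2, a chain of type V collagen that sets the width of fibrils, was higher by 0.35 on the log2 scale (SE 0.08, adjusted p = 0.0199). It lies next to COL3A1 in the RefSeq gene order, and both were called higher. Its call was lost on leaving out Hb-eGFP+ array 2 (0.0539), Hb-eGFP+ array 3 (0.0769), control array 2 (0.0625) or control array 3 (0.0563), in parentheses the adjusted p, with 0.00625 to 0.0915 over the 14 refits. COL5A1, its partner chain, had a log2 fold change of 0.24 and was not called (adjusted p = 0.0562).

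Type IV collagen, the network of the basement membrane, is made from chains encoded in pairs of neighbouring genes. Of its 6 chains 3 were higher, where 9.19% of all genes were. COL4A5 read 5624, 5012 and 5245 in Hb-eGFP+ cells and 3696, 3716 and 3345 in control cells, with no overlap (log2 fold change 0.56 ± 0.08 SE, adjusted p = 0.00218). COL4A1 read 307, 297 and 311 in Hb-eGFP+ cells and 230.3, 234 and 209 in control cells, also with no overlap (log2 fold change 0.44 ± 0.07 SE, adjusted p = 0.00442). COL4A6, the neighbour of COL4A5, was higher by 0.29 on the log2 scale (SE 0.06, adjusted p = 0.018), a call that was lost on leaving out Hb-eGFP+ array 1 (0.0541), Hb-eGFP+ array 3 (0.0638) or control array 1 (0.0621), in parentheses the adjusted p, with 0.00749 to 0.0638 over the 14 refits.

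COL4A2, the neighbour and trimer partner of COL4A1, read 772, 831 and 831 in Hb-eGFP+ cells and 717, 714 and 708 in control cells (log2 fold change 0.19 ± 0.06 SE, adjusted p = 0.0881). Its Hb-eGFP+ arrays lay above the control arrays, but the difference was not called by the brightest probe set. With the mean over the probe sets of each gene, COL4A2 was called (0.22, adjusted p = 0.0429, with 0.0429 to 0.242 over the 14 refits) and COL4A1 was not (0.19, adjusted p = 0.0912, with 0.00207 to 0.0912 over the 14 refits). Whether COL4A1 and COL4A2 differed in their change was not tested. The neighbours COL4A3 and COL4A4, chains of the kidney filter in mammals, had log2 fold changes of 0.07 and -0.09 and were not called. COL18A1, a basement membrane collagen from which endostatin is cut, was lower, with a log2 fold change of -0.29 (SE 0.07, adjusted p = 0.0201), a small difference at high intensity whose call was lost on leaving out Hb-eGFP+ array 2 (0.0545), Hb-eGFP+ array 3 (0.0775), control array 1 (0.0725) or control array 2 (0.0503), in parentheses the adjusted p, with 9.4e-04 to 0.0775 over the 14 refits.

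The largest decrease was that of COL23A1, a collagen that spans the cell membrane. It read 1719.7, 1818 and 1913 in Hb-eGFP+ cells and 4053, 4155 and 3658 in control cells, with every Hb-eGFP+ array below every control array and a mean of 1817 ± 96.6 against 3955 ± 263 (SD, n = 3; log2 fold change -1.12 ± 0.08 SE, adjusted p = 7.0e-05). COL9A1, a collagen attached to the surface of cartilage-type fibrils, read 124, 124 and 138 in Hb-eGFP+ cells and 227, 254 and 217 in control cells, without overlap (log2 fold change -0.86 ± 0.09 SE, adjusted p = 4.1e-04). COL2A1, the fibril collagen of notochord and cartilage to which type IX collagen binds, was lower, with a log2 fold change of -0.46 (SE 0.07, adjusted p = 0.00322). That call was lost with the mean over the probe sets of each gene (-0.02, adjusted p = 0.867). None of the 4 other probe sets of COL2A1 was called, and neither of the 2 others of COL9A1. COL14A1, a collagen bound to fibrils, read 64.9, 68.8 and 61.4 in Hb-eGFP+ cells and 99.1, 91.8 and 87.9 in control cells (log2 fold change -0.51 ± 0.08 SE, adjusted p = 0.00335), below the median of all probe sets. COL24A1, a minor fibrillar collagen, was lower, with a log2 fold change of -0.41 (SE 0.09, adjusted p = 0.0158), and its call was lost on leaving out Hb-eGFP+ array 1 (0.0578) or Hb-eGFP+ array 3 (0.0589), in parentheses the adjusted p, with 0.00414 to 0.0589 over the 14 refits.

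The 29 collagens that were not called had log2 fold changes from -0.76 (COL9A2) to 0.42 (COL12A1). COL9A2, a partner chain of COL9A1, read 66.9, 226 and 77.5 in Hb-eGFP+ cells and 156, 202 and 180.2 in control cells, and Hb-eGFP+ array 2 stood apart from the other arrays of its group, and its standard error was 0.42. COL9A3, the remaining partner, had a log2 fold change of 0.18 and was not called. COL11A1, another chain of cartilage-type fibrils, read 277, 292 and 299.9 in Hb-eGFP+ cells and 333, 332 and 333 in control cells, with every Hb-eGFP+ array below the control arrays (log2 fold change -0.20 ± 0.06 SE, adjusted p = 0.067). The 4 type VI chains, which form beaded microfibrils, were not called and had log2 fold changes from 0.00 for COL6A1 to 0.13 for COL6A6.

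Of 16 MMPs and TIMPs, 3 were higher and 1 lower, which is 18.8% and 6.25% against 9.19% and 10.7% of all genes, and 2 were lower on leaving out control array 3. MMP2, a secreted gelatinase that cleaves type IV collagen, read 766, 719 and 805 in Hb-eGFP+ cells and 484, 513 and 604 in control cells, without overlap (log2 fold change 0.52 ± 0.10 SE, adjusted p = 0.00904). MMP16, a protease anchored in the cell membrane that can activate MMP2, read 392, 379 and 401 in Hb-eGFP+ cells and 294, 298 and 265 in control cells, also without overlap (log2 fold change 0.45 ± 0.07 SE, adjusted p = 0.00445). TIMP3, the inhibitor that binds to the matrix, read 196, 235 and 185 in Hb-eGFP+ cells and 141, 139.5 and 161 in control cells (log2 fold change 0.48 ± 0.11 SE, adjusted p = 0.0195). Its call was lost on leaving out Hb-eGFP+ array 1 (0.0516), control array 1 (0.0572) or control array 2 (0.0624), in parentheses the adjusted p, with 0.00842 to 0.0624 over the 14 refits.

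MMP24, a membrane-anchored protease known from the mouse nervous system, was lower, at a mean below the median of all probe sets. It read 66.1, 48.3 and 48.7 in Hb-eGFP+ cells and 111, 111 and 114 in control cells (log2 fold change -1.06 ± 0.12 SE, adjusted p = 9.2e-04). The 3 control arrays were close to each other, and Hb-eGFP+ array 1 was the highest of the lower group. MMP9, the other gelatinase, read 124, 144 and 128 in Hb-eGFP+ cells and 204, 177 and 139.9 in control cells (log2 fold change -0.38 ± 0.14 SE, adjusted p = 0.0986) and was not called. TIMP2 and TIMP4 had log2 fold changes of 0.05 and 0.13, and the neighbouring genes MMP13, MMP10, MMP3, MMP1, MMP27 and MMP7 had values from -0.11 to 0.27, none of them called.

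The 90 genes were read by 229 probe sets, 63 of them by more than 1, and the further probe sets were tested over all probe sets. Among the 19 called genes read by more than 1 probe set, a further one was called the same way for 8, and no further probe set of a called gene was called the opposite way. The same share over all called genes was not computed, so whether 8 of 19 is usual on this array is not known. Adjustment over all probe sets also calls fewer genes than that over genes. The second brightest probe set of FN1 read 4519.9 against 3291 in the controls (log2 fold change 0.46, adjusted p = 0.0106 over all probe sets), while its other 6 were not called. A further probe set of ITGB3 read 72.5 against 51.7 in the controls (log2 fold change 0.49, adjusted p = 0.0149 over all probe sets), 1 of ITGA4 30.3 against 63.4 in the controls (log2 fold change -1.06, adjusted p = 0.00128 over all probe sets), 1 of COL1A2 297 against 230.4 in the controls (log2 fold change 0.37, adjusted p = 0.0423 over all probe sets) and 1 of COL23A1 303 against 403 in the controls (log2 fold change -0.41, adjusted p = 0.0134 over all probe sets). Further probe sets of LAMA1, LAMB1 and COL14A1 were called lower as well, with log2 fold changes of -0.55, -0.38 and -1.12. The brightest probe set of LAMA1 was called over genes only (adjusted p = 0.0615 over all probe sets).

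No further probe set was called for the other 11, which were ITGA8, LAMA4, MMP16, MMP24, COL3A1, COL4A1, COL4A5, COL5A2, COL2A1, COL9A1 and COL24A1. For COL3A1 the 5 others read at most 106 in Hb-eGFP+ cells, and for COL4A5 the brightest of the others read 364 against 216 in the controls (log2 fold change 0.77, adjusted p = 0.0599 over all probe sets). With the mean of all probe sets in place of the brightest, 8 calls were lost, those of FN1, MMP24, MMP16, COL14A1, COL2A1, COL5A2, COL4A1 and LAMA1, and that of COL4A2 was gained. Among the lost calls, the log2 fold changes moved from 0.48 to 0.21 for FN1, -1.06 to -0.29 for MMP24, -0.51 to -0.22 for COL14A1, -0.46 to -0.02 for COL2A1, 0.35 to 0.21 for COL5A2, 0.44 to 0.19 for COL4A1 and -0.54 to -0.25 for LAMA1. That of MMP16 moved little, from 0.45 to 0.41. Some changes whose calls were kept shrank as well, from 1.21 to 0.35 for COL3A1, 1.10 to 0.62 for LAMA4, -1.12 to -0.45 for COL23A1, -0.86 to -0.27 for COL9A1, 0.65 to 0.27 for COL1A2, 0.77 to 0.45 for ITGB3 and 0.56 to 0.37 for COL4A5. ITGA4, ITGA8, LAMB1 and COL24A1 also kept their calls, and their changes under this mean are not given here. The other 7 called genes, ITGB2, ITGB5, LAMA5, MMP2, TIMP3, COL4A6 and COL18A1, had 1 probe set each.

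Conversely, 3 genes that were not called by their brightest probe set had a further one that was. A further probe set of COL13A1, a collagen of the cell membrane, read 123 against 330.0 in the controls (log2 fold change -1.42, adjusted p = 2.6e-04 over all probe sets), and a dimmer one fell too (-0.98, adjusted p = 0.0158), whereas the brightest had a log2 fold change of 0.10. Those of COL27A1, a fibrillar collagen, and COL4A2 read 30.8 against 76.4 in the controls (log2 fold change -1.30, adjusted p = 0.00111 over all probe sets) and 214 against 128 in the controls (log2 fold change 0.75, adjusted p = 0.0155 over all probe sets).

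**Figure D3:**
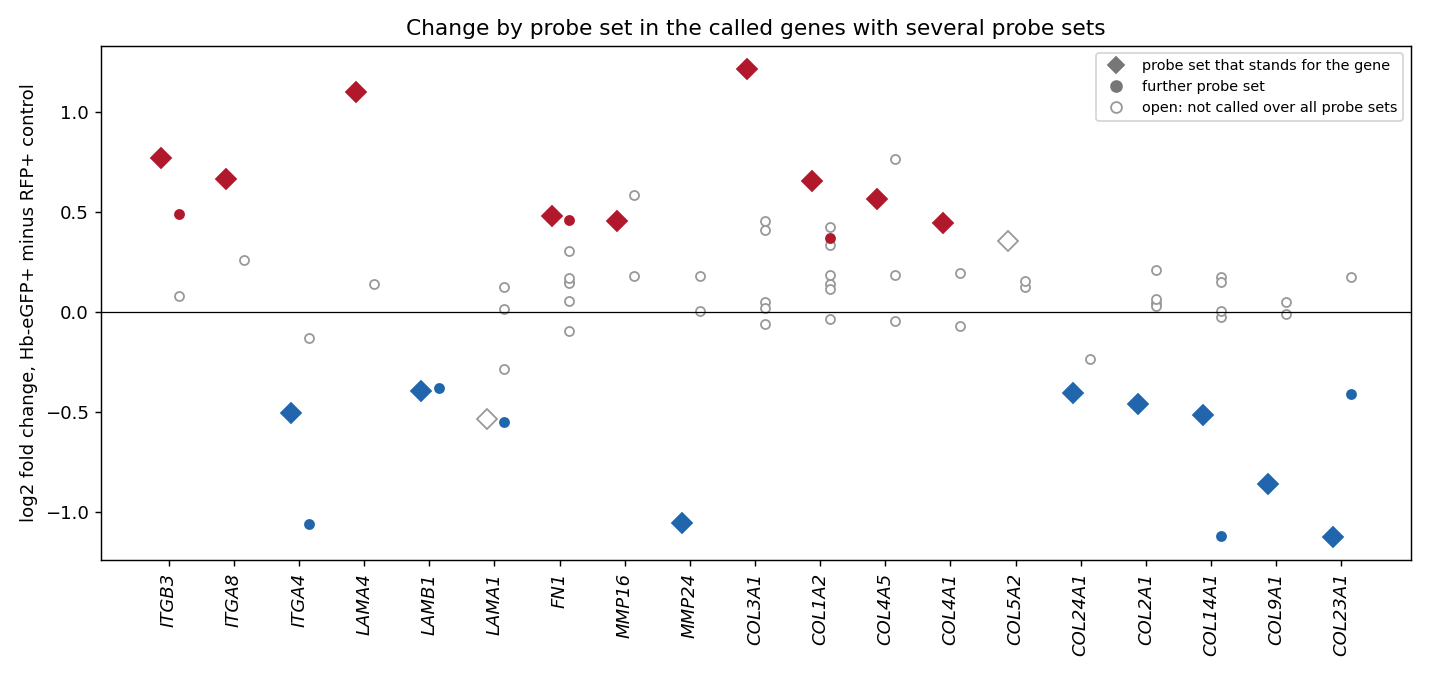
Log2 fold change (Hb-eGFP+ minus RFP+ control, vertical axis) of every probe set of the 19 called genes with several probe sets, with diamonds for the brightest probe set, circles for the others and open symbols where the probe set was not called over all probe sets. The diamonds lie farther from 0 than most circles, but the genes were chosen by the call of the diamond, which favours this pattern. The open diamonds of COL5A2 and LAMA1 were called over genes only.

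Other genes of the matrix, from a list that did not hold the families above, included larger changes. Of 62 measured, 10 were higher and 16 lower, which is 16.1% and 25.8% against 9.19% and 10.7% of all genes, with a median log2 fold change of -0.06. HAS2, the enzyme that makes hyaluronan, had a mean intensity of 1518 in Hb-eGFP+ and 4574 in control cells (log2 fold change -1.59 ± 0.09 SE, adjusted p = 1.9e-05). VCAN, the hyaluronan-binding proteoglycan versican, fell alongside (-1.73), by both of its probe sets. Reelin (RELN), a secreted glycoprotein, fell by 2.37 on the log2 scale, and CCN3, a matricellular protein, by 2.44, each by 1 of its 2 probe sets. MATN4, a matrilin that joins matrix filaments, rose to 1041 in Hb-eGFP+ from 432 in control cells (log2 fold change 1.27 ± 0.07 SE, adjusted p = 2.5e-05), by both of its probe sets. EGFL7, a matrix protein secreted by endothelium, rose by 0.79 by 4 of its 5 probe sets. TGFBI, a matrix protein that binds integrins, rose by 1.92, and agrin (AGRN), a proteoglycan of basement membranes, by 0.58 (adjusted p = 0.00841) by 1 of its 3. Periostin (POSTN) and vitronectin (VTN) of the same list were lower, with log2 fold changes of -0.84 (adjusted p = 7.6e-04) and -0.77 (adjusted p = 5.7e-04). VWF, MMRN1 and MMRN2 were not called (-0.20, -0.10 and -0.07). On leaving out Hb-eGFP+ array 3, control array 1 or control array 2, 6 of the list were higher. The count of all genes fell as well, from 1200 higher to between 742 and 1072 with any 1 array left out.

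Genes that process or cut the matrix were followed in a list of their own. Of 43 measured, 5 were higher and 7 lower (11.6% and 16.3%, against 9.19% and 10.7% of all genes). PLAU, the urokinase protease that activates plasminogen, had a mean intensity of 107 in Hb-eGFP+ and 341 in control cells (log2 fold change -1.67 ± 0.08 SE, adjusted p = 9.5e-06) by 1 of its 3 probe sets. TLL1, a protease that trims procollagens, fell by 1.29. P4HA2, a subunit of the enzyme that hydroxylates collagen prolines, rose by 0.76 (adjusted p = 2.9e-04) by 1 of its 2 probe sets, while the related P4HA3 fell by 0.42. Leaving out Hb-eGFP+ array 3 left 3 higher, and leaving out control array 2 left 4 lower, while the counts of all genes also fell with any array left out.

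Inside the cell, integrins are coupled to actin by adhesion complexes. The list of their genes also held the cell surface proteins CD9, CD47, CD81 and CD151. Of its 36 measured genes, 4 were higher, CD81 among them, and 7 lower, CD47 among them. These were 11.1% and 19.4%, against 9.19% and 10.7% of all genes, and the median was -0.04. LIMS1, an adaptor bound to integrin-linked kinase, fell by 0.60 (adjusted p = 7.9e-04) by 2 of its 6 probe sets, KANK1 of the adhesion rim by 0.73, and PTK2, the focal adhesion kinase, by 0.41 (adjusted p = 0.00772) by 1 of its 3. Paxillin (PXN), a scaffold of these complexes, rose by 0.36 (adjusted p = 0.00884) by 1 of its 2. These counts fell with most arrays left out, as the counts of all genes did with any array left out. On leaving out Hb-eGFP+ array 1, control array 1 or control array 2, 1 was higher, and 2 on leaving out Hb-eGFP+ array 3. In turn, 3 were lower on leaving out any of these 4 and 4 on leaving out control array 3.

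Markers of other tissues of the gastrula also differed between the 2 groups, and their part in the changes of the matrix genes was not tested. Over all genes, 9.19% were higher and 10.7% lower by limma. Of 11 markers of neuroectoderm, 8 were lower and none higher by limma, and their summed intensity ran from 2943 to 3225 in Hb-eGFP+ cells and from 14481 to 15107 in control cells. Of 12 markers of paraxial mesoderm and streak, 9 were lower and none higher by limma, and their summed intensity ran from 9085 to 9699 in Hb-eGFP+ cells and from 21524 to 22357 in control cells. Of 8 markers of epithelium and non-neural ectoderm, 6 were lower and none higher by limma, and their summed intensity ran from 3918 to 4273 in Hb-eGFP+ cells and from 10402 to 11284 in control cells. Among the markers of these tissues that fell were OTX2 (-4.10), MSGN1 (-3.87) and CDH1 (-1.93). Others of the same lists were not called, such as PAX6 (0.06), TBX6 (0.01) and TFAP2A (0.08). Of 11 markers of endoderm, 6 were lower and 1 higher by limma, and their summed intensity ran from 12346 to 13455 in Hb-eGFP+ cells and from 20339 to 21780.3 in control cells. Of 7 markers of axial mesendoderm, 5 were lower and none higher by limma, and their summed intensity ran from 1111 to 1291 in Hb-eGFP+ cells and from 3869 to 4548 in control cells. Of the 12 markers of blood cells and macrophages, 3 were higher and 2 lower, with sums from 3362 to 3503 in Hb-eGFP+ cells and from 2203 to 2326 in control cells. The higher ones were CTSG (1.99, mean intensity 1138 against 286 in the controls), SPI1 (1.34) and RAC2 (1.26), and the lower ones C1QA (-0.67) and SLC4A1 (-0.34). PTPRC, the pan-leukocyte gene, was not called and had a log2 fold change of -0.02. The 15 hemangioblast and endothelial markers summed to 37917 to 40428 in Hb-eGFP+ cells and 15585 to 16060.4 in control cells. Of the lists with none higher, 0 markers were higher at an unadjusted p under 0.05 and 0 by the lower bound, and 0 hemangioblast and endothelial markers were lower by either. The deposited values start at 1, so no marker could be at 0, and some were dim, such as GATA3 (19.0, 24.3 and 15.3 in Hb-eGFP+ cells).

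**Figure D4:**
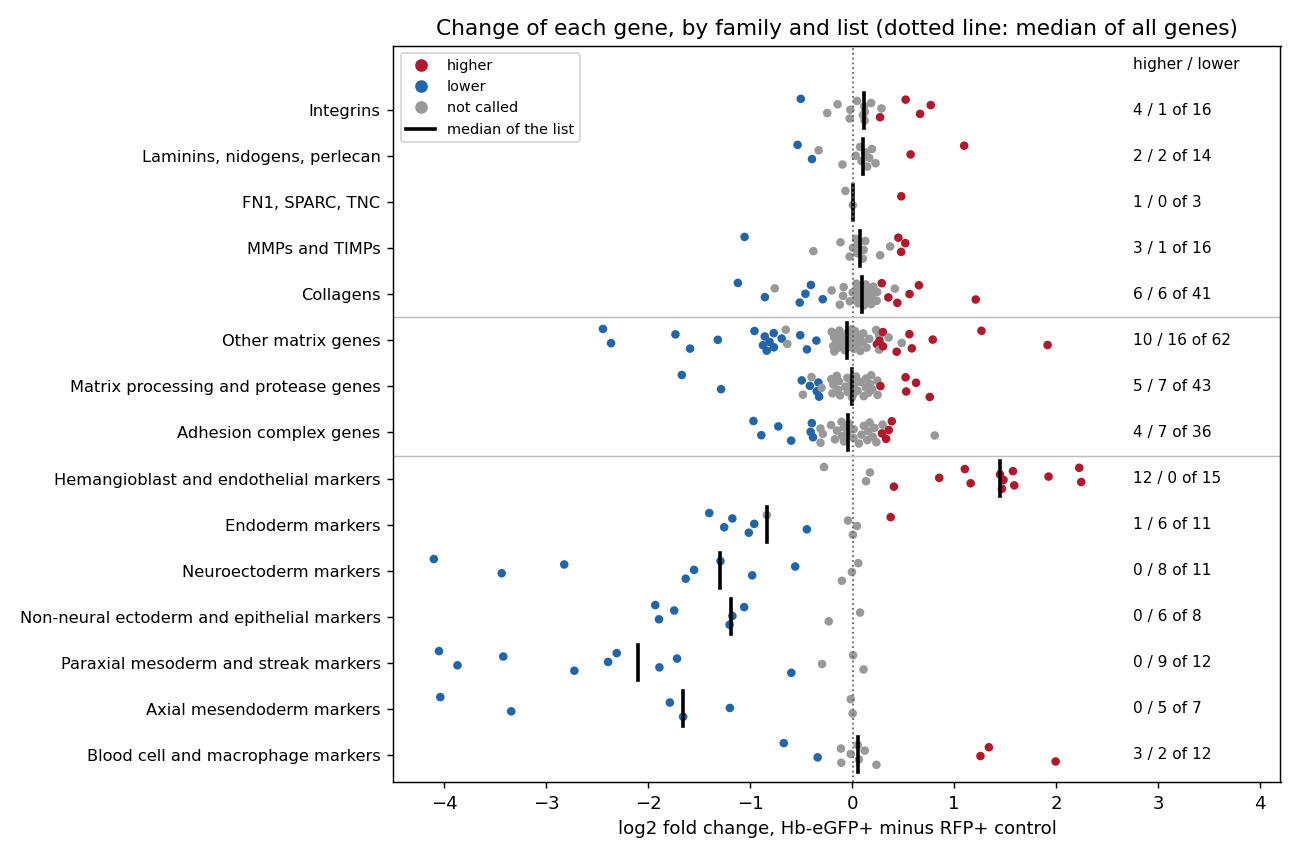
Log2 fold change (Hb-eGFP+ minus RFP+ control, horizontal axis) of each gene in the 5 families, the 3 related lists and the 7 marker lists, with black bars at the medians, a dotted line at the median of all genes, and the number called higher and lower of those measured at the right. The 5 families stay between -1.12 and 1.21, whereas the neuroectoderm markers reach -4.10.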

How the data were processed

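RNA of the 6 samples was amplified and read on the Chicken Genome Array of Affymetrix, with GCOS 1.4 per the labels. In dChip, the authors then normalized all arrays together and condensed the Perfect Match probes of a probe set to 1 model-based index. The deposited values are therefore intensities on a linear scale, from 1 to 20134. The sources used here do not give dChip's normalization method or background setting.

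Log2 values, not normalized again, were fitted with limma (lmFit and eBayes, two-sided) by group alone over all 13051 genes, and over all 38439 probe sets for further probe sets. P-values were adjusted by the Benjamini-Hochberg method. The fit was tested on simulated data. Probe sets were named through the platform annotation, in which 27168 have 1 gene, 177 several and 11094 none here. Of these probe sets, 26853 had a gene ID found in the RefSeq table of GRCg7b. That table was used for gene names, by which the 90 genes were chosen, and for neighbours. Some other genes that fit the rule, ITGA5 among them, were not analysed here. No table of sequences was at hand, and none is shown.

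The lower 90% bound of the ratio of group means was computed from the replicate spread with a normal quantile, since dChip's own errors were not at hand. With 3 arrays per group, its true coverage is not known. In each family, the 3 largest called changes in each direction and a fixed set of genes are given on every array, every other called gene by its change, and in the related lists the 3 smallest adjusted p with the first in each direction. VCAN, EGFL7, TGFBI, AGRN, POSTN, VTN, P4HA3, the marker genes given with values and the genes not called that are named with values outside the fixed set were chosen after their values were seen. The genes and lists were chosen with earlier results of these data known. Any pair of arrays held equal values for at most 0.057% of probe sets. Replicates within a group are separate pools, while the 2 groups were sorted from the same pools, which the main fit does not model. With 3 arrays against 3, an exact permutation p cannot fall below 0.1, so no such test was run. Alternatives were other scalings, filters, offsets, variance models, call rules, a replicate block, the mean over probe sets and leaving out each array. Versions were limma 3.58.1 under R 4.3.3, and pandas 2.3.3 with NumPy 2.4.6 under Python 3.11.15.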

Additional observations from a re-analysis of the deposited data

How the results depend on the processing

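Under the 14 refits, 12 of the 26 calls held wherever the gene was fitted (ITGA8, ITGB2, LAMA4, MMP24 and COL14A1, below the median, were not fitted once dim probe sets were removed), and no called gene changed direction. Quantile normalization and median centring changed no call among the 36 genes followed. The split of all genes was 1200 higher and 1396 lower, but quantile normalization gave 1389 and 1265, and median centring 1337 and 1301, while that of the 90 genes was 16 and 10, 17 and 10, and 17 and 10. With the lower bound in place of limma, 2 of the 90 genes were higher and 2 lower, 167 and 280 of all genes, 2 and 5 of the other matrix genes, 0 and 2 of the processing and protease genes, and 0 and 0 of the adhesion complex genes. With adjustment over all probe sets, 749 of all genes, 6 of the other matrix genes and 1 of the adhesion complex genes were higher, and 4 of the latter lower. COL18A1, COL4A6, COL5A2, ITGB2 and LAMA1 were then not called. With the mean over probe sets, 2 adhesion complex genes were higher. NID1 was called higher without dim probe sets, with an offset of 50 and with trend and robust variances, and ITGB1 was called lower with the latter. An offset of 50 brought the log2 fold changes of the 5 dim genes to 0.33 for ITGA8, 0.16 for ITGB2 (not called), 0.69 for LAMA4, -0.64 for MMP24 and -0.31 for COL14A1.

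With 1 array left out, the genes higher and lower were 13 to 17 and 6 to 12 of the 90, 742 to 1072 and 921 to 1293 of all genes, 6 to 9 and 12 to 15 of the other matrix genes, 3 to 5 and 4 to 7 of the processing and protease genes, and 1 to 4 and 3 to 7 of the adhesion complex genes. Of all genes, the fewest were higher (742) and lower (921) on leaving out Hb-eGFP+ array 3, and 767 and 796 were higher on leaving out Hb-eGFP+ array 1 or control array 1.

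Both groups were sorted from the same pools of embryos, but the sources do not tie the replicate numbers to pools. Correlations of deviations from the group means were -0.20, -0.10 and 0.25 for samples numbered 1, 2 and 3 in both groups. With 3 samples per group, they cannot show whether these share a pool. The main fit takes no account of the pairing. With the replicate number as a block, TIMP3, COL18A1, COL4A6, COL5A2 and ITGB2 were not called. Then 13 of the 90 genes were higher and 9 lower, 6 of the other matrix genes were higher, and 2 adhesion complex genes were higher and 4 lower. Of the 90 genes, 25 were at or below the median intensity of all probe sets.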
